A study of Mus musculus with 93 samples.

Results

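Acyl-CoA thioesterases split the fatty acyl group from coenzyme A, and the expression of 5 of them, Acot1, Acot2, Acot3, Acot4 and Acot8, was followed in mouse liver after a single oral dose of a synthetic triglyceride or a PPARα agonist. Every probeset whose only gene symbol in the platform annotation was one of these 5 was taken, which gave 7 probesets of the 11412 in the table and 5 genes of 6661. Acot2 and Acot4 had a pair of probesets each, and the one with the higher mean signal stood for the gene. A further probeset, 1422997_s_at, carries the symbols of both Acot1 and Acot2 and was counted for neither.

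A thioesterase ends the activated state of a fatty acid: it returns a free acid and free coenzyme A, the carrier that β-oxidation needs in each cycle. Acot1 to Acot4 are type I enzymes encoded by a cluster of closely related genes, and they work in different compartments: Acot1 in the cytosol, Acot2 in mitochondria, and Acot3 and Acot4 in peroxisomes. Acot8 is a peroxisomal type II enzyme with an unrelated sequence and a broad range of substrates, bile acid-CoA esters among them. In rodent liver these genes are known to respond to ligands of PPARα, the nuclear receptor that is activated by fatty acids and fibrates and that binds DNA together with RXR.

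The series held 93 arrays, 1 per mouse liver, in 20 groups of 2 genotypes: 48 arrays from PPARα -/- males (129S4/SvJae) and 45 from wild-type (WT) males (129S1/SvImJ). The substrain therefore went with the genotype, and their effects cannot be told apart. All mice had been moved to a purified diet with olive oil beforehand and fasted for 4 h, and livers were taken 6 h after the gavage, which delivered 400 µl of one triglyceride, 4 mg of an agonist (WY14643 or fenofibrate) suspended in carboxymethyl cellulose, or that vehicle alone. Each triglyceride carried a single fatty acid, namely tridocosahexaenoin (C22:6), trieicosapentaenoin (C20:5), triolein (C18:1), trilinolenin (C18:3), trilinolein (C18:2) or tridecanoin (C10:0). The labels give ages of 12 to 20 weeks for the controls and the WY14643 mice of the first run and 8 to 24 weeks for all others.

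In the first run the PPARα -/- groups held 5 mice each for WY14643, fenofibrate, C22:6, C18:1 and control, and 4 for C20:5, and the WT groups held 4 mice for WY14643, 5 each for fenofibrate, C22:6, C20:5 and C18:1, and 3 for control. The C18:3, C18:2 and C10:0 groups belonged to a later run with its own controls. There the PPARα -/- groups held 5 mice for each triglyceride and 4 controls, and the WT groups held 5 for C18:3, 5 for C10:0, 4 for C18:2 and 4 controls. The reference for a treatment was the control group of the same genotype in the same run, so that several treatments share their controls.

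Values are log2 signals unless named otherwise, and a change or difference was called at a Benjamini-Hochberg adjusted p under 0.05 over the 10432 probesets tested. The median signal of an array was 135 to 145 for the earlier arrays and 154 to 167 for the later ones. Of 3 Ppara probesets, 1 (1457721_at) separated the genotypes, with PPARα -/- arrays at 7.93 at most and WT arrays at 8.10 at least. Of 6 hepatocyte markers, 5 were in the deposited table and their summed signal was high in every array. None of the cholangiocyte, adipocyte and muscle markers was in that table, which the authors had filtered for variation across arrays. In whole liver, fewer cells of a type and less RNA per cell cannot be told apart.

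The genes of the type I cluster lie side by side on mouse chromosome 12 and Acot8 lies on chromosome 2. Their upstream sequences are shown because the genes moved together in WT mice while each has its own promoter. The windows hold the 250 bases before the annotated start in RefSeq (GRCm38.p6), on the plus strand at chr12:84009252-84009501 (Acot1), chr12:83987611-83987860 (Acot2), chr12:84051894-84052143 (Acot3, the first of 2 starts in the table) and chr12:84038129-84038378 (Acot4), and on the minus strand at chr2:164804882-164805131 (Acot8). Capitals mark matches on either strand to CCAAT (written ATTGG on the minus strand) and to GGNCA followed after 1 free base by AGGTCA, a direct repeat of the nuclear receptor core element.
Acot1: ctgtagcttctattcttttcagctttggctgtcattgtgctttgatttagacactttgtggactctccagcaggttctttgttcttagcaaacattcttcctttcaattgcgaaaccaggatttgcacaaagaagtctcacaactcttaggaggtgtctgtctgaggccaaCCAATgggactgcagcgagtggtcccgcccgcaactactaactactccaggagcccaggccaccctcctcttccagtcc
Acot2: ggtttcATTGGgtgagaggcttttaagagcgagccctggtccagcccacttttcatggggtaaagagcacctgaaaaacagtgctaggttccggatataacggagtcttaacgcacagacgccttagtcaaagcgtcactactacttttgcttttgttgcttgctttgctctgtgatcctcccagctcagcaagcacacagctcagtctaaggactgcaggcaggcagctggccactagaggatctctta
Acot3: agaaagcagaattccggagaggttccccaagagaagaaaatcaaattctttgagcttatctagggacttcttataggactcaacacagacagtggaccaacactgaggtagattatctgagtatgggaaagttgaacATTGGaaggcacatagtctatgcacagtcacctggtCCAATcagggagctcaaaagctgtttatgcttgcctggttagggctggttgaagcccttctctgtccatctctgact
Acot4: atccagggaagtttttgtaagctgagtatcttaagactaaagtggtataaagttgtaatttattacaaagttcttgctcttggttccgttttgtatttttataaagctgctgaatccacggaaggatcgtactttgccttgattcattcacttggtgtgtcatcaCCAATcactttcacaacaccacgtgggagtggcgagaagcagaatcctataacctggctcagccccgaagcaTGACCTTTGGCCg
Acot8: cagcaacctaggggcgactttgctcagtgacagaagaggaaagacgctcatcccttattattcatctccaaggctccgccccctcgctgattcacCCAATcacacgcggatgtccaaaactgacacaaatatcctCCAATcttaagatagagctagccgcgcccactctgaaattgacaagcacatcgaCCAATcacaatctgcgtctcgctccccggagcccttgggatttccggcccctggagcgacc

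The direct repeat matched once, in the Acot4 window, on the minus strand 13 bases before the start. The core element AGGTCA matched in the Acot4 window inside that repeat and in none of the other 4 windows. Over 32851 promoter windows of the same length, 0.1705% held the direct repeat and 14.02% the core element. CCAAT matched once each for Acot1, Acot2 and Acot4, 2 times for Acot3 and 3 times for Acot8, and 33.85% of all windows held at least one. The form of the repeat was chosen after these sequences had been seen, and a match is a description of letters, with no binding measured here.

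In WT mice the members rose as a group with both agonists and with most triglycerides. With WY14643, 7 of the 7 probesets were called higher (12.4% of all probesets tested were), and the members' median change was 4.15, against -0.05 over all probesets. Fenofibrate likewise gave 7 of 7 (7.40% of all), with a median of 3.61, against -0.03 over all probesets. For the 6 triglycerides the median over all probesets lay between -0.02 and 0.02. Among the triglycerides of the first run, C22:6 gave 7 of 7 (3.69% of all, median 2.68), C20:5 gave 5 of 7 (0.489% of all, median 1.67) and C18:1 gave 0 of 7 (0% of all). With C18:1, 4 of the 7 probesets had an unadjusted p under 0.05 in limma. In the later run C18:3 gave 7 of 7 (2.49% of all, median 2.19), C10:0 gave 5 of 7 (1.18% of all, median 1.57) and C18:2 gave 4 of 7 (0.374% of all, median 1.61). The calls came to 42 of 56 in WT mice, and fitting each comparison on its own arrays in place of all 93 left 22.

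**Figure D1:**
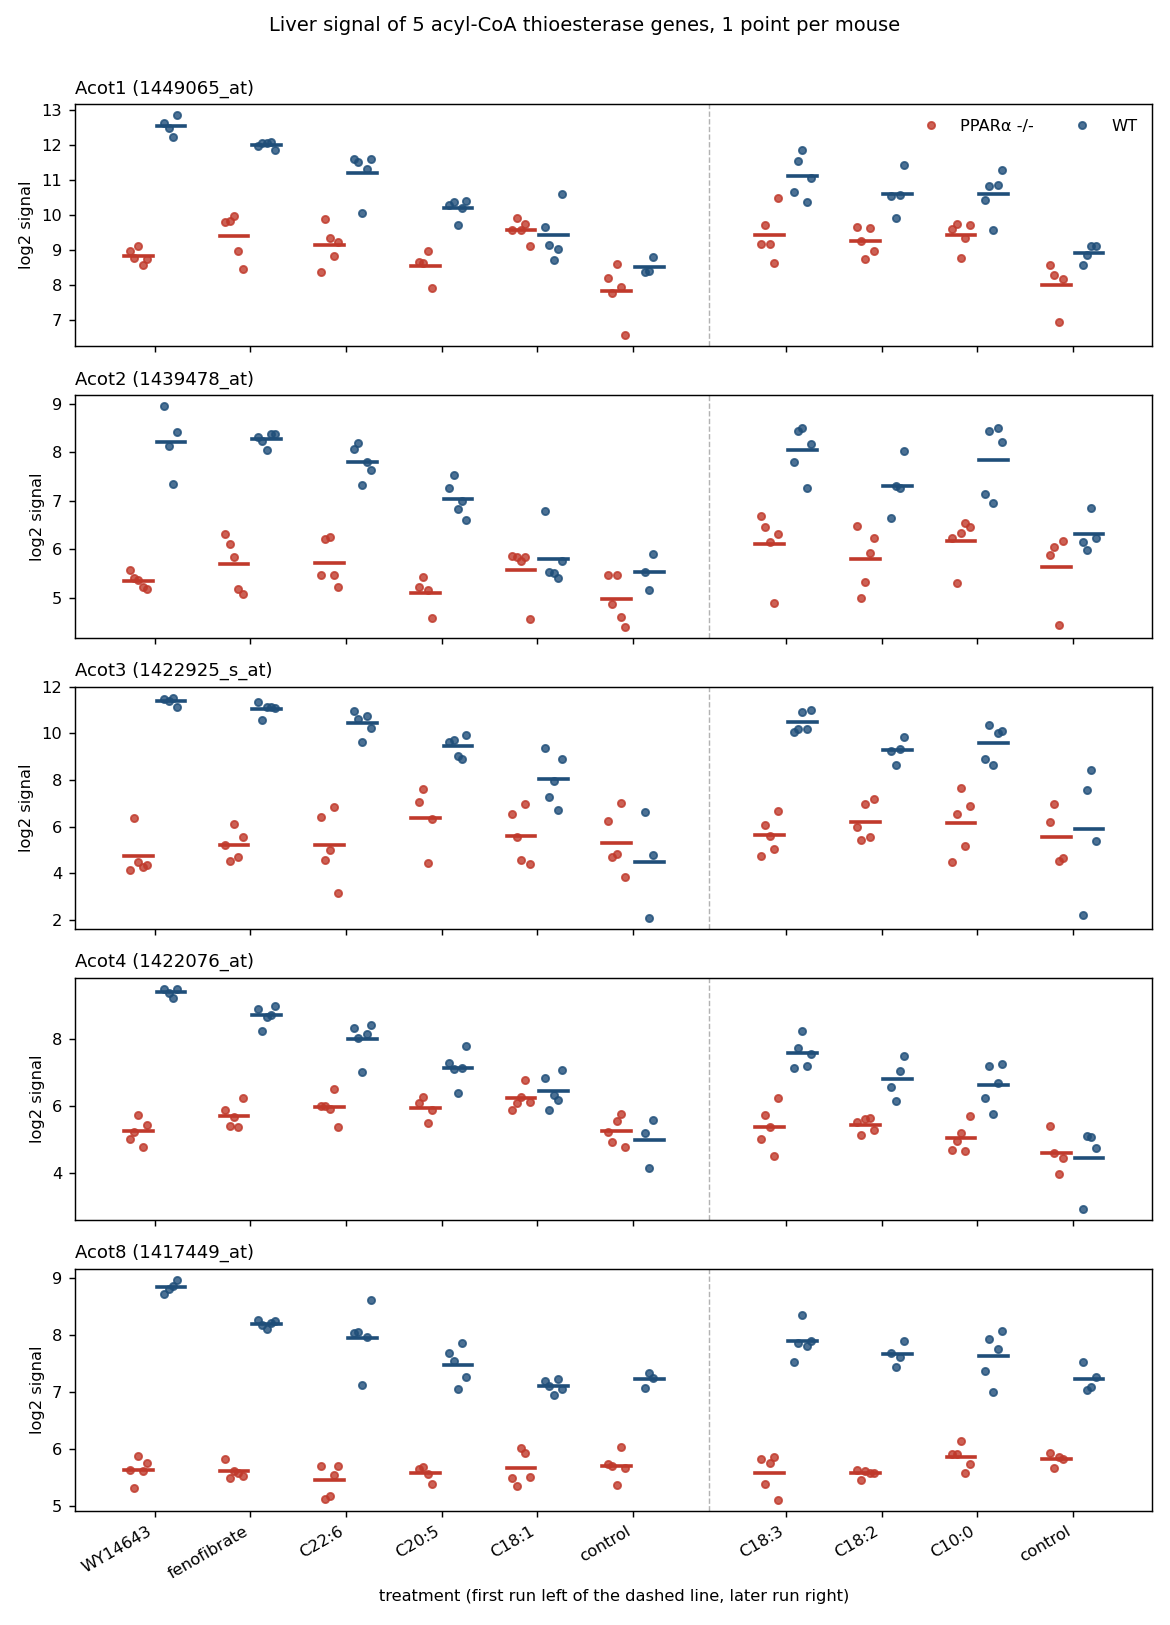
Log2 signal (y axis, 1 panel per gene with its own scale) of the 5 genes by treatment (x axis), each point 1 mouse and each bar the group mean, with PPARα -/- mice in red left of WT mice in blue and the 2 runs separated by a dashed line. Blue points stand far above their controls with WY14643 and fenofibrate in every panel, and in the Acot8 panel no red point (highest 6.15) reaches a blue one (lowest 6.95).

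Acot1, the cytosolic enzyme for long-chain acyl-CoA, rose in 7 of the 8 WT comparisons. Its signal was 12.63, 12.48, 12.23 and 12.85 in WT WY14643 mice and 11.98, 12.06, 12.07, 12.09 and 11.86 in WT fenofibrate mice, against 8.39, 8.39 and 8.80 in WT controls. Neither agonist group overlapped with the controls or with the other. As linear signals, the means were 6069 ± 1096 (SD, n = 4) with WY14643 and 372 ± 64.8 (SD, n = 3) in controls. The change was 16.3-fold with WY14643 (log2 4.02, SE 0.40, adjusted p = 2.86e-13) and 11.2-fold with fenofibrate (log2 3.49, SE 0.38, adjusted p = 3.1e-11).

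With C22:6 the Acot1 signal was 11.59, 11.50, 10.05, 11.30 and 11.59, a 6.41-fold rise over the same controls (log2 2.68, SE 0.38, adjusted p = 6.86e-07). Replicate 3 stood far below its group here, yet above every control. C20:5 gave 10.30, 10.39, 9.72, 10.20 and 10.40, a rise of 1.67 (SE 0.38, adjusted p = 0.0141). With C18:1 the 5 mice spread over 9.66, 9.15, 8.72, 9.04 and 10.59, and the change of 0.91 (95% interval 0.15 to 1.66, adjusted p = 0.491) was not called. One of these mice lay below the highest control. The C20:5 call was lost without WT control replicate 1 (1.60, adjusted p = 0.0717) or replicate 2 (1.60, adjusted p = 0.093).

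In the later run Acot1 gave 10.66, 11.56, 11.86, 10.37 and 11.05 with C18:3, 10.53, 9.92, 10.58 and 11.42 with C18:2, and 10.43, 10.84, 9.58, 10.86 and 11.28 with C10:0, against 8.58, 8.85, 9.11 and 9.13 in the WT controls of that run. All 3 groups lay wholly above these controls. The rises were 2.19 with C18:3 (SE 0.35, adjusted p = 2.82e-05), 1.70 with C18:2 (SE 0.37, adjusted p = 0.0151) and 1.68 with C10:0 (SE 0.35, adjusted p = 0.00386). Among these, the calls for C18:2 (adjusted p = 0.111) and C10:0 (adjusted p = 0.107) were lost when only the groups compared were fitted. The C18:2 call was also lost without WT C18:2 replicate 3 (1.71, adjusted p = 0.0673) or replicate 4 (1.43, adjusted p = 0.12), or WT control replicate 1 (1.58, adjusted p = 0.0888). The probeset shared by Acot1 and Acot2 was called in the same 7 WT comparisons as Acot1, with changes of 0.85 to 4.29. The sequences of Acot1 and Acot2 are closely related, and how far each probeset detects the other transcript was not tested.

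Acot2, the mitochondrial member, was read mainly by 1439478_at. Its signal was 8.94, 8.12, 7.34 and 8.41 in WT WY14643 mice and 8.31, 8.23, 8.04, 8.37 and 8.37 in WT fenofibrate mice, against 5.53, 5.17 and 5.90 in WT controls. The agonist groups overlapped with each other and lay wholly above the controls. The rise was 6.38-fold with WY14643 (log2 2.67, SE 0.39, adjusted p = 7.6e-08) and 6.64-fold with fenofibrate (log2 2.73, SE 0.38, adjusted p = 4.44e-08). C22:6, at 8.07, 8.18, 7.33, 7.79 and 7.64, gave a rise of 2.27 (adjusted p = 1.66e-05), whereas C18:1 moved it by 0.27 (adjusted p = 0.943). The rises with C20:5 (1.51, adjusted p = 0.0314), C18:3 (1.73, adjusted p = 0.000866) and C10:0 (1.54, adjusted p = 0.00892) were called and that with C18:2 (1.00, adjusted p = 0.231) was not. In a fit of the compared groups alone the adjusted p became 0.0792 for C20:5, 0.0546 for C18:3 and 0.176 for C10:0. The C20:5 call was lost without any one of WT C20:5 replicates 1, 2 and 4 and WT control replicates 1, 2 and 3, with changes of 1.32 to 1.69 and adjusted p of 0.0573 to 0.194.

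The other Acot2 probeset, 1422996_at, was near the lowest signals of the arrays outside the agonist groups. It gave 7.16, 7.25, 6.52 and 6.33 with WY14643 and 6.27, 5.33, 5.07, 5.50 and 5.34 with fenofibrate, against 1.94, 1.63 and 2.11 in WT controls, where every array was below a floor set at the 5th percentile of its own signals. The WY14643 and fenofibrate groups did not overlap on this probeset, whereas they did on 1439478_at. Measured against that floor, which was set after the data had been seen, WY14643 was at least 6.14-fold higher than control and fenofibrate at least 2.48-fold higher. These bounds were not tested. The limma test was of the change without that floor (log2 4.92 with WY14643, adjusted p = 2.1e-22), which rests on the control values below it. This probeset was also called with C22:6 and C18:3. There 3 of 5 C22:6 arrays, 4 of 5 C18:3 arrays and every control were below the floor. With only the compared groups in the fit its adjusted p was 0.0573 for C22:6 and 0.202 for C18:3.

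Acot3, the peroxisomal long-chain enzyme, showed the largest fold changes of the 5 genes, on controls that scattered widely. Its signal was 11.49, 11.40, 11.55 and 11.16 in WT WY14643 mice and 10.97, 10.62, 9.62, 10.73 and 10.25 in WT C22:6 mice, against 6.61, 2.08 and 4.76 in WT controls. All treated mice lay far above the highest control, while the controls themselves spread over more than 4 log2 units and control replicate 2 was below the floor. The change was 121-fold with WY14643 (log2 6.91, SE 0.84, adjusted p = 4.52e-10), 95.4-fold with fenofibrate (log2 6.58, adjusted p = 1.7e-09) and 62.0-fold with C22:6 (log2 5.95, adjusted p = 2.56e-07). Without control replicate 2 these log2 changes were 5.71, 5.37 and 4.75 and all were still called, so the fold rests heavily on a single control.

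With C20:5 Acot3 read 9.65, 9.74, 9.04, 8.89 and 9.94, a rise of 4.97 (adjusted p = 6.9e-05) that was 3.77 without that control (adjusted p = 0.0438). Under C18:1 the mice gave 9.36, 7.25, 7.94, 6.69 and 8.92, every one above the highest control, yet the change of 3.55 missed the threshold (adjusted p = 0.0522). It passed without WT control replicate 1, the highest control (4.61, adjusted p = 0.00714), and also with only the arrays of the run (adjusted p = 0.0427). Without control replicate 2, the mouse below the floor, the change with C18:1 was smaller and was not called. The WT controls of the later run were at 2.20, 7.59, 8.44 and 5.40, and the rises there were 4.57 with C18:3 (adjusted p = 3.35e-05), 3.70 with C10:0 (adjusted p = 0.00248) and 3.36 with C18:2 (adjusted p = 0.0205). Without the control at 2.20, replicate 1, the change was 3.33 with C18:3 and still called, while the calls for C10:0 (2.46, adjusted p = 0.0701) and C18:2 (2.12, adjusted p = 0.402) were lost. The C18:2 call was lost as well without WT C18:2 replicates 1, 3 or 4 or control replicate 4, with changes of 3.17 to 3.36 and adjusted p of 0.0646 to 0.111. Fitted on the compared groups alone, Acot3 was not called with C20:5 (adjusted p = 0.102), C18:3 (adjusted p = 0.119), C18:2 (adjusted p = 0.385) or C10:0 (adjusted p = 0.234).

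Acot4, the peroxisomal enzyme for succinyl-CoA and other dicarboxylic esters, rose with less scatter. Its signal was 9.48, 9.34, 9.21 and 9.48 in WT WY14643 mice, 8.88, 8.23, 8.65, 8.71 and 8.96 in WT fenofibrate mice and 8.31, 8.02, 7.00, 8.13 and 8.41 in WT C22:6 mice, against 5.21, 4.16 and 5.58 in WT controls. The WY14643 group lay above the fenofibrate group without overlap, and replicate 3 was again the low mouse of the C22:6 group. The rise was 21.0-fold with WY14643 (log2 4.39, SE 0.37, adjusted p = 5.48e-16), 13.0-fold with fenofibrate (log2 3.70, adjusted p = 5.15e-13) and 7.93-fold with C22:6 (log2 2.99, adjusted p = 5.82e-09).

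For Acot4 the smaller rises followed the same line: 4.42-fold with C20:5 (adjusted p = 0.000108) and a change of 1.47 with C18:1 (adjusted p = 0.0698) that was not called although its 5 mice, at 6.84, 5.87, 6.31, 6.18 and 7.07, all lay above the controls. The later run gave 7.14, 7.71, 8.22, 7.18 and 7.55 with C18:3, against 2.94, 5.10, 5.06 and 4.74 in its WT controls, a rise of 3.10 (SE 0.33, adjusted p = 2.05e-10). C18:2 and C10:0 raised it by 2.34 (adjusted p = 2.42e-05) and 2.15 (adjusted p = 1.97e-05). With only the compared groups in the fit the adjusted p was 0.102 for C20:5, 0.183 for C18:2 and 0.161 for C10:0. The dimmer Acot4 probeset, 1422077_at, was called in the same 7 WT comparisons, though it was below the floor in 7 of 7 WT controls and in all 48 PPARα -/- arrays. With only the compared groups in the fit its adjusted p was 0.0667 for C20:5, 0.0634 for C18:3, 0.218 for C18:2 and 0.161 for C10:0. Its C18:2 call was also lost without WT control replicate 1 of the later run (1.27, adjusted p = 0.0888) or WT C18:2 replicate 4 (1.41, adjusted p = 0.0752). The Acot4 change with C18:1 passed with only the arrays of the run (adjusted p = 0.0427).

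Acot8, the type II peroxisomal enzyme, had the smallest called rises of the 5 genes. It read 8.72, 8.80, 8.86 and 8.97 with WY14643 and 8.26, 8.17, 8.10, 8.21 and 8.24 with fenofibrate, against 7.07, 7.34 and 7.25 in WT controls. The 3 groups did not overlap. The rise was 3.07-fold with WY14643 (log2 1.62, SE 0.20, adjusted p = 4.78e-10) and 1.96-fold with fenofibrate (log2 0.97, SE 0.19, adjusted p = 7.66e-05). C22:6 raised it by 0.74 (adjusted p = 0.00876) with 8.03, 8.05, 7.13, 7.96 and 8.62, of which replicate 3 fell among the controls. C18:3 raised it by 0.66 (adjusted p = 0.0172). In a fit of the compared groups alone the adjusted p was 0.251 for C22:6 and 0.147 for C18:3. The C22:6 call was lost without WT C22:6 replicate 5 (0.57, adjusted p = 0.0672) or WT control replicate 1 (0.66, adjusted p = 0.0587), and the C18:3 call without WT C18:3 replicate 3 (0.54, adjusted p = 0.114) or replicates 2 (0.59, adjusted p = 0.064) or 3 (0.61, adjusted p = 0.0591) of the later WT controls. The changes with C20:5 (0.26), C18:1 (-0.11), C18:2 (0.43) and C10:0 (0.39) were not called. Those with C18:2 and C10:0 had an unadjusted p under 0.05 in limma, and the C10:0 change passed with array weights (0.49, adjusted p = 0.0424).

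**Figure D2:**
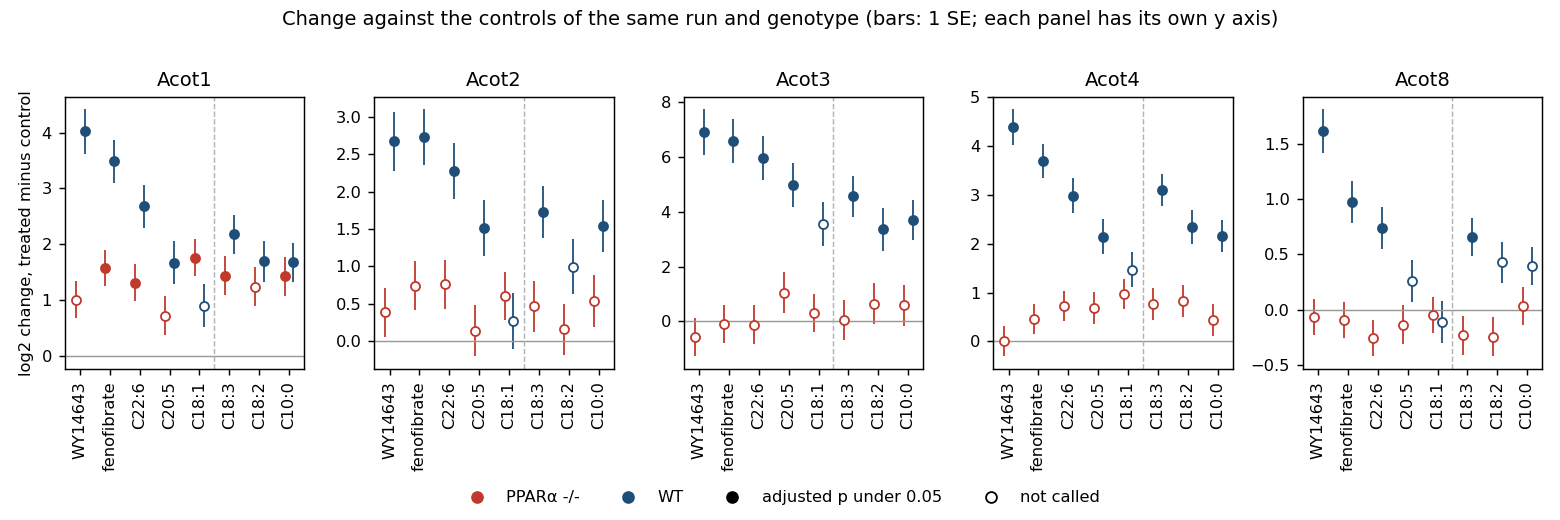
Log2 change from control (y axis, treated minus control, a scale of its own in each panel) for each treatment (x axis) in PPARα -/- mice (red) and WT mice (blue), with bars of 1 SE and filled points for adjusted p under 0.05. Red points fill in the Acot1 panel only, where C18:1 is the one treatment with a larger change in PPARα -/- mice (1.76) than in WT mice (0.91).

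In PPARα -/- mice 5 of 56 changes were called, all 5 of them for Acot1 in the fit over all arrays. The count was 1 of 7 with fenofibrate (0.105% of all probesets were called higher), C22:6 (6.26% of all), C18:1 (0.882% of all), C18:3 (6.05% of all) and C10:0 (3.49% of all). It was 0 of 7 with WY14643 (0% of all), C20:5 (0.0288% of all) and C18:2 (0.192% of all), where 1, 2 and 2 probesets had an unadjusted p under 0.05 in limma. For Acot2 the 8 changes ranged over 0.14 to 0.76, for Acot3 over -0.58 to 1.05, for Acot4 over -0.00 to 0.98 and for Acot8 over -0.26 to 0.04. At an unadjusted p under 0.05 in limma these genes had 2, 0, 5 and 0 of 8 changes. The Acot4 change with C18:1 (0.98, adjusted p = 0.0797) was not called, although its 5 mice, the lowest at 5.88, lay wholly above the controls, the highest at 5.75. It passed with only the arrays of the run (adjusted p = 0.0406), with array weights (0.89, adjusted p = 0.0233) and with quantile normalization (1.04, adjusted p = 0.0455). The Acot4 change with C18:3 passed without PPARα -/- C18:3 replicate 4 (0.98, adjusted p = 0.0468) or PPARα -/- control replicate 1 of that run (1.03, adjusted p = 0.0474).

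Acot1 in PPARα -/- livers had its largest estimated change with C18:1. The 5 mice were at 9.57, 9.90, 9.56, 9.75 and 9.11, against 8.21, 7.77, 8.60, 7.94 and 6.56 in PPARα -/- controls. The groups did not overlap, and the rise was 3.39-fold (log2 1.76, SE 0.33, adjusted p = 0.00117). C18:3 (9.17, 9.72, 9.18, 8.62 and 10.50) and C10:0 (9.61, 9.74, 8.77, 9.36 and 9.71) also lay wholly above the PPARα -/- controls of their run (8.58, 8.28, 6.95 and 8.18), with rises of 1.44 (adjusted p = 0.00445) and 1.43 (adjusted p = 0.00668). C18:2 did so as well (9.67, 9.25, 8.73, 9.62 and 8.96), but its change of 1.25 was not called (adjusted p = 0.0705), except with an inter-quartile range of at least 0.5 as the filter (adjusted p = 0.0456).

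Fenofibrate (9.80, 9.82, 9.96, 8.96 and 8.44) and C22:6 (8.38, 9.90, 9.33, 8.84 and 9.23) raised Acot1 in PPARα -/- mice by 1.58 (adjusted p = 0.0207) and 1.32 (adjusted p = 0.00473), with groups that overlapped with the controls. WY14643, at 8.96, 8.76, 9.12, 8.57 and 8.74, gave a change of 1.01 (95% interval 0.36 to 1.67, adjusted p = 0.411) that passed with array weights (1.05, adjusted p = 0.0117). A single PPARα -/- control was far below the others in each run, replicate 5 at 6.56 in the first and replicate 3 at 6.95 in the later one. The fenofibrate call was lost without the first of these (1.27, adjusted p = 0.239), and also without control replicate 2 (1.57, adjusted p = 0.0502) or fenofibrate replicates 1 (1.48, adjusted p = 0.116) or 3 (1.44, adjusted p = 0.0945), and the calls for C18:3 (1.09, adjusted p = 0.056) and C10:0 (1.09, adjusted p = 0.0711) were lost without the second. C22:6 and C18:1 were called whichever mouse was left out. Fitted on the compared groups alone, none of the 5 was called, with adjusted p between 0.0535 for C18:1 and 0.698 for fenofibrate.

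Markers of other cell types were read beside these Acot1 changes. Cela1, the only one of 5 exocrine pancreas markers in the deposited table, had its highest signal among the PPARα -/- controls in those same mice. It was 472.4 in replicate 5 of the first run and 820.9 in replicate 3 of the later one, with group medians of 305.2 and 515.8. All 10 macrophage markers were in that table. In PPARα -/- mice of the first run their summed signal was 2733 to 5012 with C22:6, 2620 to 3784 with C18:1 and 2159 to 4410 with fenofibrate. The PPARα -/- controls of that run gave 489.7 to 3644. In the later run the sum was 1851 to 2841 with C18:3 and 2072 to 2639 with C10:0, against 1716 to 3164 in PPARα -/- controls. The part of these markers in the Acot1 changes was not tested.

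Without treatment, Acot8 was the member that differed between the genotypes. It read 5.74, 5.70, 5.37, 6.04 and 5.67 in PPARα -/- controls and 7.07, 7.34 and 7.25 in WT controls of the first run, and 5.92, 5.66, 5.85 and 5.82 in PPARα -/- controls and 7.53, 7.04, 7.08 and 7.27 in WT controls of the later run. There was no overlap in either run, nor over all arrays, where the 48 PPARα -/- arrays lay between 5.10 and 6.15 and the 45 WT arrays between 6.95 and 8.97. The difference was -1.52 (SE 0.19, adjusted p = 1.9e-09) in the first run, where 4.95% of all probesets were called lower, and -1.42 (SE 0.18, adjusted p = 4.83e-09) in the later run, where 4.22% were. It was the 1 of 7 probesets called in each run.

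The other members did not pass between untreated genotypes. For Acot1 the difference was -0.71 (adjusted p = 0.259) in the first run and -0.91 (adjusted p = 0.123) in the later one, for Acot2 -0.57 and -0.67, for Acot3 0.82 and -0.34, and for Acot4 0.26 and 0.15. The 95% intervals for Acot4 ran from -0.45 to 0.97 in the first run and from -0.54 to 0.83 in the later one, and those for Acot3 from -0.79 to 2.43 and from -1.89 to 1.22. The groups of Acot3 and Acot4 overlapped in both runs.

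Whether a change differed between genotypes was tested directly, as the change in PPARα -/- mice minus the change in WT mice. For WY14643 the difference was called lower for 7 of 7 probesets (8.21% of all) and for fenofibrate likewise for 7 of 7 (4.34% of all). With WY14643 it was -3.01 for Acot1 (adjusted p = 7.68e-06), -2.29 for Acot2 (adjusted p = 0.000543), -7.50 for Acot3 (adjusted p = 2.76e-07), -4.39 for Acot4 (adjusted p = 6.21e-11) and -1.68 for Acot8 (adjusted p = 6.67e-07). With fenofibrate the 5 genes gave -1.91, -1.99, -6.68, -3.23 and -1.07 in the same order.

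Among the triglycerides, C22:6 gave 5 of 7 (2.26% of all) and C18:3 gave 3 of 7 (0.633% of all). With C22:6 the difference was -6.07 for Acot3 (adjusted p = 0.000165), -2.27 for Acot4 (adjusted p = 0.00167) and -0.99 for Acot8 (adjusted p = 0.0128), while Acot1 (-1.36, 95% interval -2.37 to -0.36, adjusted p = 0.115) and the brighter Acot2 probeset (-1.51, adjusted p = 0.0723) missed the threshold. The dimmer Acot2 probeset was among the 5 (-1.89, adjusted p = 0.00145), though its signal was below the floor in every PPARα -/- array and in 3 of the 5 WT C22:6 arrays. The brighter one passed with only the arrays of the run (adjusted p = 0.0356), with 16 added to the signals (adjusted p = 0.0345) and with the replicate number as a block (-1.56, adjusted p = 0.0348). The Acot1 difference passed without PPARα -/- control replicate 5 (-1.68, adjusted p = 0.0401) or WT C22:6 replicate 3 (-1.65, adjusted p = 0.044). With C18:3 it was -4.52 for Acot3 (adjusted p = 0.015) and -2.33 for Acot4 (adjusted p = 0.00487), and -0.89 for Acot8 (adjusted p = 0.0518). The Acot3 call was lost without WT control replicate 1 of the later run (-3.29, adjusted p = 0.112) or PPARα -/- control replicate 2 of that run (-4.07, adjusted p = 0.0519), and the Acot4 call for C22:6 without WT control replicate 2 (-1.86, adjusted p = 0.0536). The Acot8 difference for C18:3 passed without PPARα -/- C18:3 replicates 1, 3 or 4 or WT C18:3 replicate 1, at -0.98 to -0.93 with adjusted p of 0.0349 to 0.0468, and with array weights (adjusted p = 0.0221), an intensity trend (0.0494), 16 added to the signals (0.0408) or an inter-quartile range of at least 0.5 (0.038). Fitted on the compared groups alone, no difference in response to a triglyceride was called for the probesets that stand for the genes, with adjusted p for C22:6 of 0.0606 for Acot3, 0.0623 for Acot4 and 0.252 for Acot8, and for C18:3 of 0.14 for Acot3 and 0.118 for Acot4.

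None of the 7 probesets was called as different in response with C20:5 (0.0288% of all called lower), C18:1 (0%), C18:2 (0%) or C10:0 (0.00959%). At an unadjusted p under 0.05 in limma the counts were 4, 1, 4 and 4 of 7 in that order. The members' median difference was -1.37 with C20:5, 0.07 with C18:1, -0.84 with C18:2 and -1.01 with C10:0. A missed call here does not show that the genotypes responded alike. For Acot1 the difference was -0.95 with C20:5, 0.86 with C18:1 (95% interval -0.15 to 1.86), -0.45 with C18:2 (-1.46 to 0.56), -0.25 with C10:0 (-1.23 to 0.74) and -0.75 with C18:3 (-1.73 to 0.24). With C18:3 and C10:0 the Acot1 rise was called in both genotypes, and these intervals do not separate the responses or bound the difference closely.

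**Figure D3:**
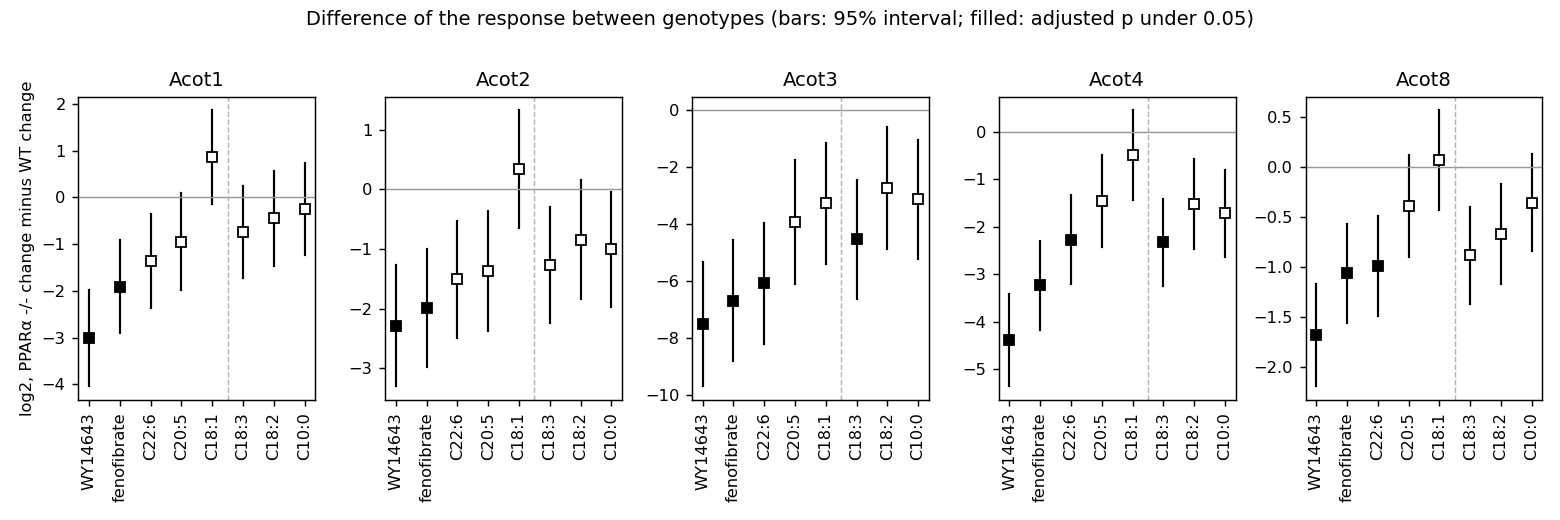
Difference in response (y axis, log2 change in PPARα -/- mice minus log2 change in WT mice, a scale of its own in each panel) for each treatment (x axis), with 95% intervals and filled squares for adjusted p under 0.05. The agonists are filled in all 5 panels, C22:6 and C18:3 only for Acot3 and Acot4 (and C22:6 for Acot8), and the Acot1 interval for C18:1 runs from -0.15 to 1.86.

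Compounds given in one run at one dose were then compared with each other, in 14 contrasts. In WT mice WY14643 exceeded fenofibrate for 2 of 7 probesets (1.01% of all called higher): Acot8 by 0.64 (SE 0.17, adjusted p = 0.0345) and the dimmer Acot2 probeset by 1.31 (adjusted p = 0.00171), while the brighter Acot2 probeset gave -0.06. The Acot1 and Acot4 differences of 0.54 and 0.69 were not called, though Acot4 passed in a fit of the compared groups alone (adjusted p = 0.0416). The Acot8 call was lost with quantile normalization (0.62, adjusted p = 0.0558). The Acot8 call was lost without any one of WY14643 replicates 2, 3 and 4 and fenofibrate replicates 2, 3 and 4, with differences of 0.60 to 0.65 and adjusted p of 0.0588 to 0.101.

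C22:6 and C18:1, which differ in chain length and in the number of double bonds, were separated for every member in WT mice. C22:6 was higher for 7 of 7 probesets (3.18% of all), by 1.77 for Acot1 (adjusted p = 0.000178), 2.00 for Acot2 (adjusted p = 1.95e-05), 2.40 for Acot3 (adjusted p = 0.029), 1.52 for Acot4 (adjusted p = 0.00073) and 0.85 for Acot8 (adjusted p = 0.00033), of which the Acot8 call was lost in a fit of the compared groups alone (adjusted p = 0.0765). C20:5 exceeded C18:1 for 1 of 7 (0.939% of all), the brighter Acot2 probeset, by 1.24 (adjusted p = 0.0304), and for 7 of 7 at an unadjusted p under 0.05 in limma. With array weights the C20:5 excess was also called for Acot1 (adjusted p = 0.00224), Acot3 (adjusted p = 0.0489), Acot4 (adjusted p = 0.0255) and Acot8 (adjusted p = 0.0088), while the Acot2 call was lost in a fit of the compared groups alone (adjusted p = 0.0756). The Acot3 difference between C22:6 and C18:1 was not called without C22:6 replicates 1, 2, 4 or 5 or C18:1 replicates 2, 3 or 4 (2.07 to 2.45, adjusted p of 0.0552 to 0.118). The Acot2 difference between C20:5 and C18:1 was not called without C20:5 replicates 1, 2 or 4 or C18:1 replicates 2, 3 or 4 (1.12 to 1.25, adjusted p of 0.0685 to 0.117). C22:6 exceeded C20:5 for 1 of 7 (0.0288% of all), the dimmer Acot2 probeset, which was below the floor in all 5 C20:5 arrays and in 3 of 5 C22:6 arrays, so that no size is given for it, and whose call was lost in a fit of the compared groups alone (adjusted p = 0.156). At an unadjusted p under 0.05 in limma the count was 6 of 7. For Acot1 the difference between C22:6 and C20:5 was 1.01 (adjusted p = 0.443, or 0.0262 with array weights) and for Acot4 it was 0.84 (adjusted p = 0.0333 with array weights), while the Acot8 difference of 0.48 passed without WT C22:6 replicate 3 (0.68, adjusted p = 0.038).

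C18:3, C18:2 and C10:0 were not separated on these genes in WT mice, where 0 of 7 probesets were called for C18:3 over C18:2, C18:3 over C10:0 and C18:2 over C10:0 (0% of all were called higher in each). At an unadjusted p under 0.05 in limma the counts were 4, 3 and 0 of 7. The Acot1 differences were 0.49 (95% interval -0.21 to 1.19), 0.50 (-0.15 to 1.16) and 0.01 (-0.68 to 0.71). In PPARα -/- mice none of the 7 contrasts had a member called. Of all probesets, called in either direction, WY14643 against fenofibrate had 0.0959%, C22:6 against C20:5 had 3.13%, C22:6 against C18:1 had 0.326%, C20:5 against C18:1 had 0.192%, C18:3 against C18:2 had 0%, C18:3 against C10:0 had 0.882% and C18:2 against C10:0 had 0.0192%. The one member with an unadjusted p under 0.05 was Acot1 for C20:5 over C18:1, at -1.04 (adjusted p = 0.225). Its groups did not overlap, and it passed with array weights (-1.06, adjusted p = 0.0477).

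Ordered by mean level over both runs, WT WY14643 mice were the highest group for Acot1, Acot3, Acot4 and Acot8 and WT fenofibrate mice for Acot2. The order mixes runs whose array medians differed (135 to 145 and 154 to 167), so places of groups from different runs also carry the run. For Acot1, WT WY14643 and WT fenofibrate each stood clear of the next group. For Acot4 and Acot8 only WT WY14643 did so at the top of the order. For Acot8 a second gap lay between the lowest WT group (C18:1, first run) and the highest PPARα -/- group (C10:0, later run). Elsewhere neighbouring groups overlapped.

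Some pairs of members varied together between mice of one group and others did not. Over deviations from the group mean, Acot3 and Acot4 gave r = 0.62 in 48 PPARα -/- mice and 0.79 in 45 WT mice, and Acot1 and Acot2 gave 0.64 and 0.63. The Acot1 and Acot8 deviations gave -0.30 in PPARα -/- mice and 0.65 in WT mice, and those of Acot3 and Acot8 0.02 and -0.00. In PPARα -/- mice Acot1 and Acot3 gave 0.08 and Acot2 and Acot8 gave -0.17, against 0.42 and 0.43 in WT mice. These are descriptions, since the signals of a mouse share its array and normalization. Acot3 scattered most in the WT controls, with an SD of 2.28 in the first run and 2.78 in the later one. In the treated WT groups its SD was 0.17 to 1.12. Of the 7 WT controls 2 were below the floor for Acot3, and r without the controls was not computed. How far the Acot3 and Acot4 probesets detect each other's transcripts was not tested. WT C22:6 replicate 3 and WT C10:0 replicate 3 were the lowest of their groups in 7 of 7 probesets, and WT C18:2 replicate 4 was the highest of its group in 7 of 7.

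**Figure D4:**
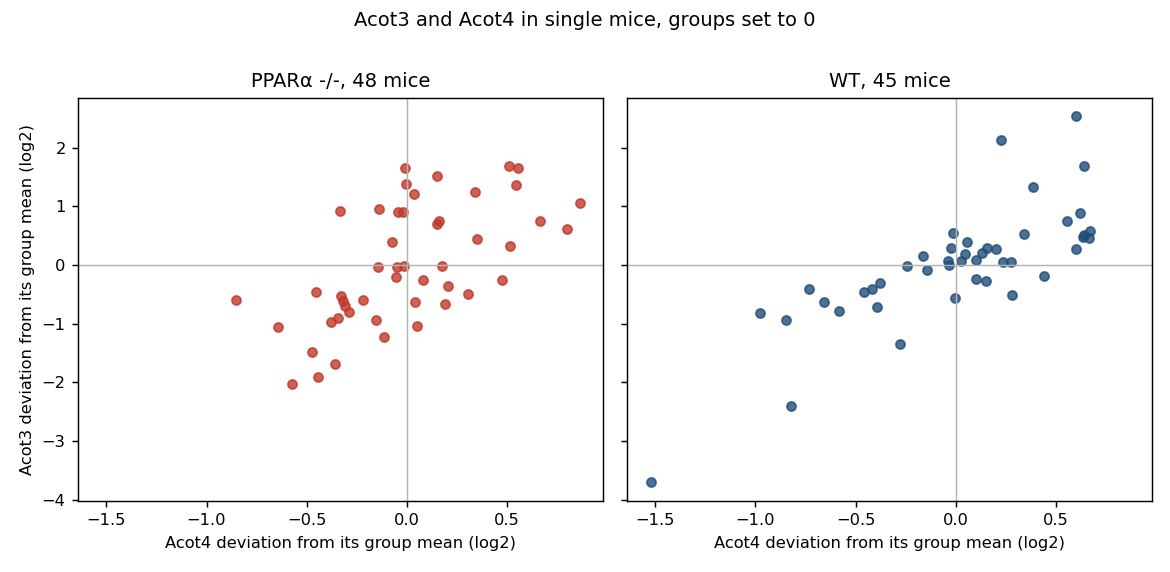
Deviation of the log2 signal from the group mean for Acot3 (y axis) against Acot4 (x axis), 1 point per mouse, in 48 PPARα -/- mice and 45 WT mice. Points run from lower left to upper right in both panels (r = 0.62 and 0.79), and the lowest WT point is a control mouse of the later run. Among WT groups Acot3 scattered most in the controls (SD 2.28 and 2.78), of which 2 of 7 mice were below the floor.

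Across the 16 changes from control the members' own pairs gave r between 0.77 (Acot1 and Acot3) and 0.96 (Acot3 and Acot4). The genes whose changes were most like those of a member were, for Acot1, Fas, Abhd6, Chkb, Kdsr and Hadhb (r of 0.95 to 0.97), and for Acot2, Ehhadh, Rab30, Lrfn3, Cyp4a31 and Pdk4 (0.95 to 0.96). For Acot3 they were Gstt2, 9130016M20Rik, Tec, Gprin3 and Cyp4a14 (0.96 to 0.97), for Acot4 Mcrip2, Hsd17b7, Rab30, A1cf and Chrna2 (0.97 to 0.98), and for Acot8 Hsd17b7, Acaa1a, Abhd6, Hsd17b4 and Hadhb (0.97 to 0.98). Several of these encode enzymes of β-oxidation (Hadhb, Ehhadh, Hsd17b4 and Acaa1a). The 16 changes share controls within a run and genotype, so these values rank genes and test nothing.

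Other thioesterases were counted beside the family. Of 15 listed, 9 were measured, and in WT WY14643 mice 2 rose and 4 fell, with a median change of 0.03, against 4.15 for the members and -0.05 over all probesets. Of all probesets 12.4% rose and 14.2% fell in that comparison. Acot12, a cytosolic acetyl-CoA hydrolase, rose by 0.73 (adjusted p = 0.000205) and Acot7 by 0.59 (adjusted p = 0.00351), while Baat, which conjugates bile acids to amino acids, fell by 0.66 (adjusted p = 0.000319) and the lysosomal thioesterase Ppt1 fell by 0.36 (adjusted p = 0.0385). Acot11 (-0.74) and Ppt2 (-0.54) were the others that fell. With fenofibrate 1 rose, Acot12, and with C22:6 none of the 9 was called in WT mice, where 3.69% of all probesets rose and 2.17% fell (1 of the 9 was at an unadjusted p under 0.05 in limma). Acot9 rose in PPARα -/- mice given C22:6 (1.32, adjusted p = 0.00851) and is named after its value was seen.

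Genes of coenzyme A synthesis and breakdown, which supply or remove the carrier that thioesterases release, held called rises and called falls. Of 17 listed, 13 were measured. In WT WY14643 mice 5 of these 13 rose and 2 fell, with a median of 0.15, where 12.4% of all probesets rose and 14.2% fell. Vnn1, which splits pantetheine, rose by 3.30, the mitochondrial coenzyme A carrier Slc25a42 by 1.73, Ppcs by 1.41, and the pantothenate kinases Pank3 and Pank1 by 1.12 and 0.88, while Enpp3 and the peroxisomal coenzyme A hydrolase Nudt7 fell by 1.30 and 0.94. C22:6 raised 4 of 13, Vnn1 by 2.33, Slc25a42 by 0.83, Ppcs by 0.68 and Pank3 by 0.57, and lowered Nudt7 by 0.74 (adjusted p = 0.00487). Of all probesets 3.69% rose and 2.17% fell with C22:6 in WT mice. In PPARα -/- mice given C22:6, 0 rose and 3 fell, where 6.26% of all probesets rose and 8.44% fell.

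Of 15 genes listed for the other ways by which acyl groups leave or are oxidised in peroxisomes and mitochondria, 11 were measured. In WT mice 10 of these 11 rose with WY14643, 10 with fenofibrate and 7 with C22:6, with medians of 1.15 for WY14643 and 0.58 for C22:6. The shares of all probesets that rose were 12.4%, 7.40% and 3.69% in that order. Crat, the carnitine acetyltransferase, rose by 2.99 with WY14643 and by 1.66 with C22:6, the peroxisome proliferation factor Pex11a by 2.77 and 1.71, and the peroxisomal bifunctional enzyme Ehhadh by 2.67 and 1.76. Cpt1a, which admits acyl groups to mitochondria, was the exception with WY14643 (0.18, adjusted p = 0.426). In PPARα -/- mice given C22:6, Crat (1.25, adjusted p = 0.00157), Slc25a20 (0.82, adjusted p = 9.2e-05) and Cpt1a (0.44, adjusted p = 0.0124) rose and Abcd3 fell by 0.26. Without treatment 9 of the 11 were lower in PPARα -/- controls than in WT controls in the first run and 10 in the later one, as Acot8 was. Of all probesets 4.95% were lower in the first run and 4.22% in the later one. Of 20 listed acyl-CoA synthetases, which make the substrates of the thioesterases, 9 were measured. With WY14643 in WT mice 4 of the 9 rose (12.4% of all probesets rose). These were Acsl3 by 0.95, Slc27a4 by 0.76, Acsl5 by 0.75 and Acsm3 by 0.57. Acsm1 was the 1 that fell, by 0.45 (14.2% of all fell). With C22:6 in WT mice 0 of the 9 were called (1 at an unadjusted p under 0.05 in limma). In PPARα -/- mice given C22:6, 1 of the 9 rose and 3 fell, against 6.26% and 8.44% of all probesets. There 6 of the 9 had an unadjusted p under 0.05 in limma.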

How the data were processed

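Liver RNA of 93 mice was hybridised to 1-colour Affymetrix Mouse Genome 430 2.0 arrays. The deposited values are linear intensities per probeset, which the authors made by GC-RMA (GCRMA 2.20 in the submitters' processing notes) with quartile normalization in their words, and of which they kept 11463 probesets that varied across arrays. GC-RMA draws dim probesets towards a common low value, which can inflate or shrink folds of low signals. Genes were named from the platform annotation, in which 10279 probesets had 1 symbol, 406 several and 727 none, and 51 control probesets were left out. The log2 intensities, computed here from the deposited values, were fitted with limma 3.58.1 (R 4.3.3), with 1 mean per group over all 20 groups, 40 contrasts and no covariate. Probesets with an inter-quartile range of at least 0.25 (10432) were tested, and p-values were adjusted by Benjamini and Hochberg within each comparison. The script was tested on simulated data. Arrays are biological replicates per the labels, no 2 were identical, and the lowest correlation within a group was 0.92. The number of arrays limits the precision.

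Named were all members, the 5 genes most alike each by Pearson correlation over 16 changes, and members of 4 context lists called with WY14643 or C22:6 in WT mice. The members and lists were chosen with earlier results of these data known. Same-numbered mice deviated together in 1 of 16 comparisons (PPARα -/- WY14643 against control, r of 0.11 to 0.30 over 5 pairs), so the main design has no block. Alternatives changed the filter, the arrays fitted, the error model, the scaling, the pseudocount (16), the threshold, the block and the probeset, and left out each replicate. Figures were drawn with matplotlib 3.10.9 (Python 3.11.15).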

Additional observations from a re-analysis of the deposited data

Results flagged for a closer look

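Of 133 group and probeset combinations of 4 to 10 mice, 11 held a mouse whose gap to its nearest neighbour exceeded Dixon's 95% value, and chance alone gives about 1 in 20. WT C22:6 replicate 3 was low for Acot1 (10.05, others 11.30 to 11.59) and for Acot4 (7.00, others 8.02 to 8.41). WT C18:1 replicate 1 was high on both Acot2 probesets, at 6.79 on 1439478_at (others 5.41 to 5.76) and 2.67 on 1422996_at (others 1.66 to 1.92). On 1422996_at all 5 arrays of that group were below the floor. WT control replicate 1 of the later run was low for Acot4 (2.94, others 4.74 to 5.10), at a value below the floor.

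In PPARα -/- mice the brighter Acot2 probeset was low in C18:1 replicate 5 (4.57, others 5.76 to 5.86), in control replicate 3 of the later run (4.44, others 5.88 to 6.18) and in C10:0 replicate 2 (5.30, others 6.22 to 6.54). In WY14643 replicate 2 the dimmer Acot2 probeset was low (1.46, others 1.73 to 1.81) and Acot3 was high (6.37, others 4.14 to 4.48). In that group all 5 arrays were below the floor on the dimmer Acot2 probeset and 4 of 5 for Acot3. Acot8 was low in C18:2 replicate 2 (5.46, others 5.58 to 5.62).

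The change from control differed between the genotypes, by limma's test of the difference, in 15 cases over the 5 genes, each given as the PPARα -/- change minus the WT change. With WY14643 these were -3.01 for Acot1, -2.29 for Acot2, -7.50 for Acot3, -4.39 for Acot4 and -1.68 for Acot8. With fenofibrate they were -1.91 for Acot1, -1.99 for Acot2, -6.68 for Acot3, -3.23 for Acot4 and -1.07 for Acot8. With C22:6 they were -6.07 for Acot3, -2.27 for Acot4 and -0.99 for Acot8, and with C18:3 they were -4.52 for Acot3 and -2.33 for Acot4.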

How the results depend on the processing

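The members' calls numbered 42 for treatments in WT mice, 5 for treatments in PPARα -/- mice, 2 between untreated genotypes, 22 for differences in response and 11 between compounds. With only the compared groups in the fit they were 22, 0, 2, 15 and 9, by construction with fewer arrays behind the spread. At an unadjusted p under 0.01 they were 47 in WT mice, 8 in PPARα -/- mice, 37 in response and 19 between compounds, and with array weights the compounds gave 20. Leaving out each mouse gave 39 to 43, 3 to 6 (3 without PPARα -/- control replicate 3 of the later run), 2 to 2, 21 to 24 and 9 to 12 in that order. Over single values, 52 of 3031 such fits lost a call and 11 gained one. With the replicate number as a block the counts were 42, 5, 2, 23 and 11. The call gained was the brighter Acot2 probeset's difference in response to C22:6 (-1.56, adjusted p = 0.0348). Samples with the same number share only that number in 15 of 16 comparisons, and where every pair deviated together, PPARα -/- WY14643 against control, the block changed no call of a member. The one reversal was Acot2 in WT WY14643 minus WT fenofibrate, -0.06 on its brighter probeset and 1.31 on its dimmer one. Dim probesets are limited by GC-RMA's low values, and folds for Acot3 rest on few controls.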
